A study of Mus musculus with 6 samples.

Results

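The genes described here are 10 mouse genes for protein deacetylases, enzymes that take acetyl groups off lysines in histones and other proteins: Hdac3, Hdac4, Hdac5, Hdac6, Hdac7, Hdac8, Hdac9, Hdac11, Sirt1 and Sirt2. They are a named set from the HDAC and SIRT families, picked by no measured value but with earlier results of these data known, and they are 10 of the 47643 gene identifiers in the counts. The set does not hold the whole of either family. All 10 passed the filter on low counts, which left 15573 genes for testing. RNA was measured in 6 cultures of dorsal root ganglion (DRG) cells, the sensory ganglia beside the spinal cord, from CD-1 mice at embryonic day 13. In 3 cultures the cells had received lentivirus labelled shControl, a control short hairpin RNA, and in 3 lentivirus labelled shUHRF1, a hairpin against the epigenetic factor UHRF1. The neurons were uninjured, every culture carried a lentivirus, and the study asked which transcripts change when UHRF1 is knocked down. The sources used here do not give the hairpin sequences, the number of hairpins per gene or the origin of each replicate, so the p-values measure the spread between these cultures, which may be technical.

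Deacetylases are grouped by catalytic chemistry. The classical zinc-dependent enzymes comprise class I (here Hdac3 and Hdac8), class IIa (Hdac4, Hdac5, Hdac7 and Hdac9, which shuttle between nucleus and cytoplasm and bind MEF2 transcription factors), class IIb (Hdac6, a mostly cytoplasmic tubulin deacetylase) and class IV (Hdac11). The sirtuins form class III and use NAD as a cosubstrate. In neurons, HDAC6 acts on microtubules and axonal transport, HDAC5 and HDAC3 have been studied in axon injury, and SIRT1 is a nuclear deacetylase linked to neuronal survival. UHRF1 binds hemimethylated CG pairs and brings the maintenance DNA methyltransferase to them.

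The DNA just upstream of the 3 deacetylase genes that were called higher in the shUHRF1 cultures is shown together with that of the member whose window held the fewest CG pairs, Hdac9. The sequences come from RefSeq windows of GRCm38.p6, the build of the mm10 counts, read 5′ to 3′ on the gene's strand toward the start site. Capitals mark CG pairs, and bases that GENCODE M21 places in an exon on that strand were left off. The runs are Hdac6 at chrX:7947890-7948139 (minus strand, 250 bases), Hdac11 at chr6:91156565-91156664 (plus strand, 100 bases), Sirt1 at chr10:63339051-63339285 (minus strand, 235 bases) and Hdac9 at chr12:34917096-34917345 (minus strand, 250 bases). The Sirt1 run lies inside the span that GENCODE gives the gene, between exons of 1 longer transcript model, and the other runs lie outside their gene's span.
Hdac6: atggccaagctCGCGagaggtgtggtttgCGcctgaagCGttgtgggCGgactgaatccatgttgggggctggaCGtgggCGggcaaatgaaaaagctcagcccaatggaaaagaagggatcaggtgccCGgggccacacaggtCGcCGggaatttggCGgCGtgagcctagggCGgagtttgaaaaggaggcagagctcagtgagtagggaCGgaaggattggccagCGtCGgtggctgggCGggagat
Hdac11: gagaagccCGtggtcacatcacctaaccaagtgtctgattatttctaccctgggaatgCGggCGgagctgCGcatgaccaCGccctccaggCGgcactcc
Sirt1: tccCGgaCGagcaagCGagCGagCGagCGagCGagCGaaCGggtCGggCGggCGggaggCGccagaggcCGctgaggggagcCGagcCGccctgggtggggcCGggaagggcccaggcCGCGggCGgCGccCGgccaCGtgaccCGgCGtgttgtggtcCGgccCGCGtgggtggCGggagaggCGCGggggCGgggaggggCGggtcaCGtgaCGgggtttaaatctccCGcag
Hdac9: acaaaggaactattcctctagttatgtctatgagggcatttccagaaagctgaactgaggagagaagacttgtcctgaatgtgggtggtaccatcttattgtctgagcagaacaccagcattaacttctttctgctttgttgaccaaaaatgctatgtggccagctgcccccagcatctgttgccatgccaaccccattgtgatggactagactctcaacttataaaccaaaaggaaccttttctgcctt

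Windows of 250 bases before a RefSeq start were found for 9 of the 10 members, 13 windows in all, among 32851 windows of all genes. The Sirt1 window held 39 CG pairs, a number reached by 1.56% of all windows, and 79.2% of its bases were G or C. The Hdac6 and Hdac11 windows each held 17 CG pairs, reached by 23.5% of windows. Of the Hdac11 window, 150 of 250 bases lie in an annotated exon on its strand, and the 100 bases shown held 6 CG pairs. The Sirt1 window had 15 such exon bases, and the 235 bases shown held 36 CG pairs. The fewest were the 0 of the Hdac9 window shown, 1 of 2 for that gene. The windows of members that were not called held from 0 in Hdac9 over 6 in Hdac8, 12 in Hdac5 and 13 in Sirt2 to 23 in Hdac4 and 25 in 1 of the 4 windows of Hdac7. All 250 bases of that Hdac7 window and 201 of the Hdac8 window lie in annotated exons on the gene's strand. On either strand, the GC box letters GGGCGG occurred 6 times before Sirt1, 4 times before Hdac6 and 1 time before Hdac11, and in 32.7% of all windows. The CCAAT box letters CCAAT occurred 2 times before Hdac6, 1 time before Hdac11 and not before Sirt1, and in 33.8% of all windows. The Hdac11 copy is not within the 100 bases shown. The E-box letters CACGTG, which read the same on both strands, occurred 2 times before Sirt1 and in 6.02% of all windows. DNA methylation was not analysed here, and these letters are a description of the windows only.

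Between 15599776 and 22382813 reads fell in genes in each library, and 8.43% to 17.2% of all counted alignments were recorded as lying in no annotated feature, highest in the 2 libraries numbered 2. Uhrf1 itself was rare, with 8, 6 and 5 reads in the shControl libraries and 2, 1 and 5 in the shUHRF1 libraries. In CPM (reads per 1000000 reads in genes, after TMM scaling of the libraries) this was 0.364 ± 0.115 against 0.13 ± 0.0981 (SD, n = 3 each), with the third shUHRF1 library at 0.242, inside the shControl range of 0.239 to 0.465. The exact two-sided permutation test gave p = 0.2, where 0.1 is the smallest that 3 against 3 allows, and Uhrf1 was below the filter on low counts. At so few reads the size of the knockdown was not measurable, and shUHRF1 names the label of a library throughout. When Uhrf1 was kept in the fit, its log2 fold change was −1.39 ± 0.62 (SE, edgeR adjusted p = 0.141). It was −2.16 without the third shUHRF1 library, the one inside the shControl range, so the estimate turned on a few reads. Neuronal markers were abundant: 11 of 11 were tested and all lay at 10 CPM or more in shControl, led by Prph, Tubb3 and Nefl. Their summed level ran from 23690 to 28596 CPM in the shControl cultures and from 18803 to 24704 CPM in shUHRF1, and 1 of the 11, Tubb3, was lower (−0.75, edgeR adjusted p = 0.0168; 0.0585, 0.06 and 0.0633 without the shControl library 1, the shControl library 3 or the shUHRF1 library 3).

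Markers of other cells of a ganglion were mostly low and in part higher in shUHRF1. Low markers could enter the test through the shUHRF1 libraries alone, so the number called is no measure of these lists and the summed levels are given. Of 8 fibroblast markers, 5 were below 1 CPM in shControl, and the summed level of the list was 6.99 to 10.1 CPM in the shControl cultures and 70.4 to 164.1 CPM in shUHRF1, with Postn, a matrix protein of fibroblasts, at 2.96 ± 0.552 and 58.9 ± 17.3 CPM (SD, n = 3 each). Of 12 glial markers, 10 were below 1 CPM in shControl, and the sum, mostly S100b and Mbp, was 338.8 to 413 CPM against 107.9 to 387.6 CPM. Mbp, a myelin protein, was lower (134.9 ± 16.8 against 70 ± 21.4 CPM, adjusted p = 0.0217; 0.0639, 0.078 and 0.0529 without the same 3 libraries). Of 9 macrophage markers, 6 were below 1 CPM in shControl, and the sums were 5.89 to 11.5 against 15 to 29 CPM. Endothelial and mural markers summed to 8.09 to 10.2 against 15.3 to 21.8 CPM, and muscle markers to 9.29 to 12 against 19.8 to 56 CPM. Members of these 2 lists did not move together. Pdgfrb was at 4.11 and 11.3 CPM and Rgs5 at 1.91 and 3.75 CPM, but Tek at 1.71 and 1.96 CPM and Pecam1 at 0.753 and 0.586 CPM. Of the muscle markers, Ttn was at 3.35 ± 1.92 and 27.1 ± 20.3 CPM and Acta1 at 6.44 ± 0.513 and 4.65 ± 1.28 CPM. The other 3 muscle markers were below 1 CPM in shControl. Of 5 erythroid markers 2 were tested, the sums were 2.53 to 4.08 against 1.8 to 3.95 CPM, and Hba-a2 was at 0 in every library. The part of these other cells in the deacetylase results below was not tested. In such bulk RNA, fewer cells of a type and less RNA per cell cannot be told apart.

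Of the 10 genes, 3 were higher in the shUHRF1 libraries by edgeR's quasi-likelihood test with Benjamini-Hochberg adjustment at 0.05. These were Hdac6, Hdac11 and Sirt1, at 1.58, 1.62 and 1.57 times their shControl level in the fit. By the same test 0 were lower, with 0 at an unadjusted p under 0.05 and 0 by DESeq2 or limma-voom, and 7 were not called. Over all 15573 tested genes 24% were called, 11.6% as higher and 12.4% as lower (1807 and 1928 genes; with upper-quartile scaling 2512 and 1378). The members' log2 fold changes ran from −0.09 to 0.70 with a median of 0.29, against 0.02 over all tested genes, and 8 of 10 were above 0. In 5 members (Hdac4, Hdac6, Hdac7, Hdac11 and Sirt1) every shUHRF1 library lay above every shControl library, an arrangement found in 21.7% of tested genes. The reverse arrangement occurred in no member, but its share of all tested genes is not given here, so the directions are not compared.

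**Figure D1:**
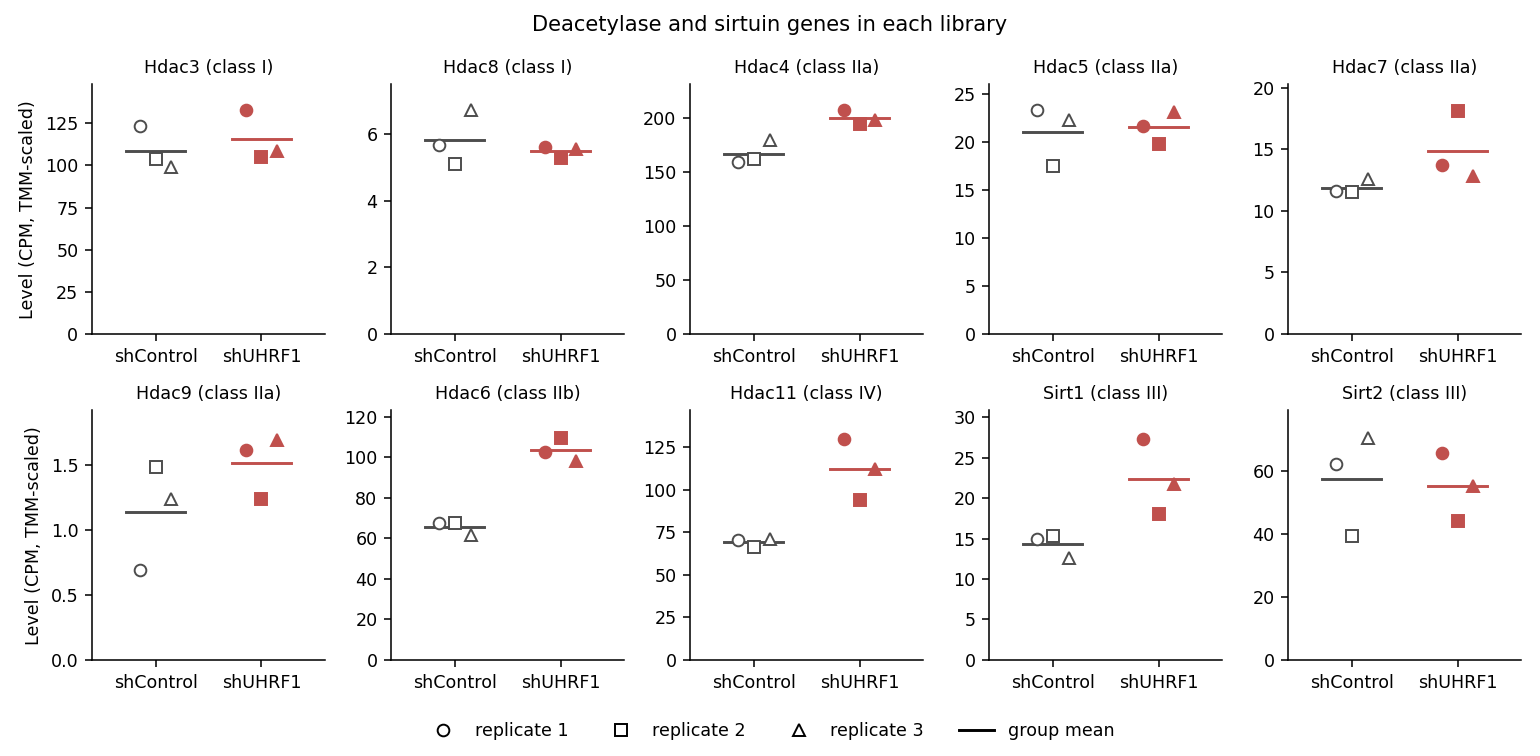
CPM of each member in each of the 6 libraries, with shControl on the left and shUHRF1 on the right of each panel; horizontal lines are group means (n = 3), and the point shapes give the replicate number. Hdac6 sits at 61.7 to 67.7 CPM in the shControl cultures and 98.4 to 109.6 CPM in shUHRF1, while the points of Hdac3, Hdac5, Hdac8, Hdac9 and Sirt2 overlap.

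Class IIb was represented by Hdac6, whose enzyme deacetylates alpha-tubulin, cortactin and HSP90 and carries ubiquitinated protein aggregates to the aggresome. Hdac6 (ENSMUSG00000031161.15, chromosome X, 7930120 to 7947889, minus strand, GRCm38) had 1160, 1046 and 1290 reads in the shControl libraries and 2284, 1861 and 2031 in the shUHRF1 libraries. As CPM these were 67.4, 67.7 and 61.7 CPM against 102.6, 109.6 and 98.4 CPM. The groups did not overlap, and the libraries within each group lay close together. The means were 65.6 ± 3.38 and 103.5 ± 5.66 CPM (SD, n = 3 each), and the log2 fold change was 0.66 ± 0.10 (SE; edgeR adjusted p = 0.00454), with a 95% interval of the fold from 1.34 to 1.86. The log2 ratio within replicate numbers 1, 2 and 3 was 0.61, 0.69 and 0.67, the narrowest spread of the 3 called members. Hdac6 was called in 16 of 16 other fits, with log2 fold changes from 0.59 to 0.78 and adjusted p from 2.51e-06 to 0.03, and no other annotated gene shares its exon bases.

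Class IV was represented by Hdac11, the smallest of the classical deacetylases, which also removes long-chain fatty acyl groups from lysines. Hdac11 (ENSMUSG00000034245.10, chromosome 6, 91156665 to 91174692, plus strand) had 1210, 1023 and 1488 reads in shControl and 2896, 1597 and 2314 in shUHRF1. Its levels were 70.3, 66.2 and 71.2 CPM against 130, 94 and 112.1 CPM. All 3 shUHRF1 libraries were above all shControl libraries, but they differed among themselves more than those of Hdac6 did. The means were 69.2 ± 2.63 and 112.1 ± 18 CPM, and the log2 fold change was 0.70 ± 0.14 (SE, n = 3 each; edgeR adjusted p = 0.00987), with a 95% interval of the fold from 1.30 to 2.01. Within replicate numbers the log2 ratio was 0.89, 0.51 and 0.66. Hdac11 was called in 16 of 16 other fits, with log2 fold changes from 0.57 to 0.82 and adjusted p from 0.000124 to 0.0439. Antisense transcript models overlap its exons (Gm44002 over 15.4% of the exon bases and Gm14573 over 2.49%), but they had 0 and 1 to 5 reads per library.

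Of the 2 sirtuins, Sirt1 was called and Sirt2 was not, and the difference between them was not tested. Sirt1 encodes the nuclear NAD-dependent deacetylase of histones, p53 and PGC-1alpha (ENSMUSG00000020063.16, chromosome 10, 63319005 to 63381704, minus strand). It had 257, 236 and 264 reads in shControl and 609, 305 and 447 in shUHRF1. The levels were 14.9, 15.3 and 12.6 CPM against 27.3, 18 and 21.7 CPM, so the groups did not overlap, with the second shUHRF1 library nearest to the shControl range. The means were 14.3 ± 1.44 and 22.3 ± 4.73 CPM, and the log2 fold change was 0.65 ± 0.18 (SE, n = 3 each; edgeR adjusted p = 0.0382), with a 95% interval of the fold from 1.17 to 2.10. Within replicate numbers the log2 ratio was 0.87, 0.23 and 0.78.

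The Sirt1 call was made in 10 of 16 other fits and in 1 of the 6 that left out a library. Without the shControl library 1, 2 or 3 the log2 fold change was 0.66, 0.68 or 0.56 (edgeR adjusted p = 0.0994, 0.0748 and 0.141). Without the shUHRF1 library 1 or 3 it was 0.47 or 0.66 (adjusted p = 0.0811 and 0.0937), and without the shUHRF1 library 2 it was 0.75 and called (0.0208). An offset for exon GC content and length gave 0.54 (0.0793), and the same offset with the replicate number as a block gave 0.52 and a call (0.0477).

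Sirt2, a mainly cytoplasmic sirtuin that also deacetylates tubulin and is abundant in myelinating glia (chromosome 7, 28766735 to 28788661, plus strand), was spread widely within both groups. It stood at 62.1, 39.2 and 70.3 CPM in the shControl cultures and at 65.7, 44.1 and 55.2 CPM in shUHRF1. In both groups the library numbered 2 was the lowest, and the groups overlapped. The means were 57.2 ± 16.1 and 55 ± 10.8 CPM, and the log2 fold change of −0.06 ± 0.23 (edgeR adjusted p = 0.888) had a 95% interval from −0.59 to 0.48.

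Class IIa held the member with the most reads, Hdac4, and the one with the fewest, Hdac9. Hdac4 (ENSMUSG00000026313.15, chromosome 1, 91928779 to 92195699, minus strand) encodes a repressor of MEF2 target genes that is regulated by calcium-dependent kinases. It was at 158.9, 161.6 and 179.7 CPM in the shControl cultures and 207.2, 194.3 and 197.7 CPM in shUHRF1. No shUHRF1 library fell into the shControl range, yet the difference was small: the means were 166.8 ± 11.3 and 199.7 ± 6.71 CPM. The log2 fold change was 0.26 ± 0.10 (95% interval 0.02 to 0.50), with an unadjusted p of 0.0356 and an edgeR adjusted p of 0.105. Hdac4 was called in 1 of 16 other fits, with upper-quartile scaling (0.39, adjusted p = 0.0273), under which the median over all tested genes was 0.142 on the log2 scale, against 0.017 as reported. The antisense model Gm26720 overlaps 22.4% of its exon bases and had 0 reads in every library.

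Hdac7, which is best known from endothelium and thymocytes (chromosome 15, 97792664 to 97844502, minus strand), was at 11.6, 11.5 and 12.6 CPM in the shControl cultures and at 13.7, 18.1 and 12.8 CPM in shUHRF1. The groups did not overlap, although the third libraries differed by little and the second shUHRF1 library was the highest. The log2 fold change was 0.32 ± 0.17 (95% interval −0.08 to 0.72; edgeR adjusted p = 0.224), and without the second shUHRF1 library it was 0.13. Hdac5, whose protein leaves the nucleus of DRG neurons after axon injury (chromosome 11, 102194432 to 102230166, minus strand), was at 23.3, 17.5 and 22.3 CPM against 21.6, 19.8 and 23.1 CPM. All 3 shUHRF1 values fell inside the shControl range, and the log2 fold change was 0.03 ± 0.15 (95% interval −0.32 to 0.38; adjusted p = 0.911). Hdac9, a class IIa member known from muscle and heart (chromosome 12, 34047580 to 34917095, minus strand), had 12, 23 and 26 reads against 36, 21 and 35. At 1.14 ± 0.405 and 1.52 ± 0.245 CPM its log2 fold change of 0.41 ± 0.36 (95% interval −0.42 to 1.24; adjusted p = 0.45) had the widest interval of the 10, and no change was detectable at this depth. Without the shControl library 1 or 2 it was 0.13 or 0.62.

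Class I showed no called change. Hdac3, the catalytic subunit of the NCoR corepressor complex (ENSMUSG00000024454.15, chromosome 18, 37935844 to 37955016, minus strand), was at 123.2, 103.9 and 99.1 CPM in the shControl cultures and at 132.9, 105.3 and 108.5 CPM in shUHRF1. The groups overlapped, with the first library of each the highest. The means were 108.7 ± 12.8 and 115.6 ± 15.1 CPM, the log2 fold change was 0.09 ± 0.14 and its 95% interval ran from −0.23 to 0.41 (edgeR adjusted p = 0.684). Hdac8, an X-linked class I enzyme that deacetylates the cohesin subunit SMC3 (102284639 to 102505359, minus strand), was at 5.69, 5.11 and 6.74 CPM against 5.61, 5.3 and 5.57 CPM. All 3 shUHRF1 values fell inside the shControl range, and the log2 fold change was −0.09 ± 0.19 (95% interval −0.54 to 0.35; adjusted p = 0.771).

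**Figure D2:**
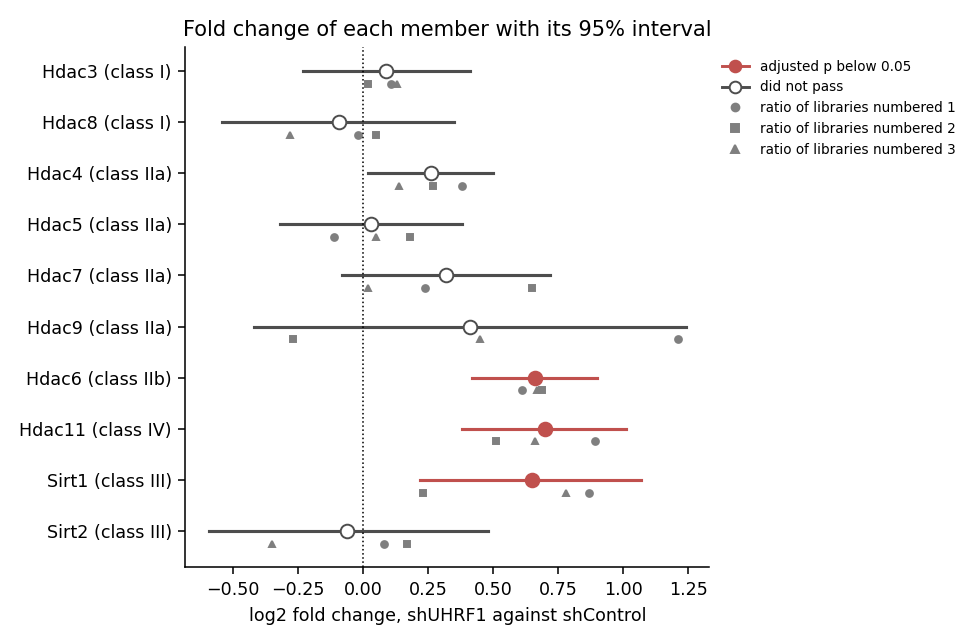
Log2 fold change of shUHRF1 against shControl for the 10 members, with points at the edgeR estimate and lines at its 95% interval; red marks called members, and the small grey points are the log2 ratios of same-numbered libraries. The intervals of Hdac6, Hdac11 and Sirt1 lie above 0 from 0.42, 0.38 and 0.22 upward, that of Hdac4 starts at 0.02, and the other 6 cross 0.

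**Figure D3:**
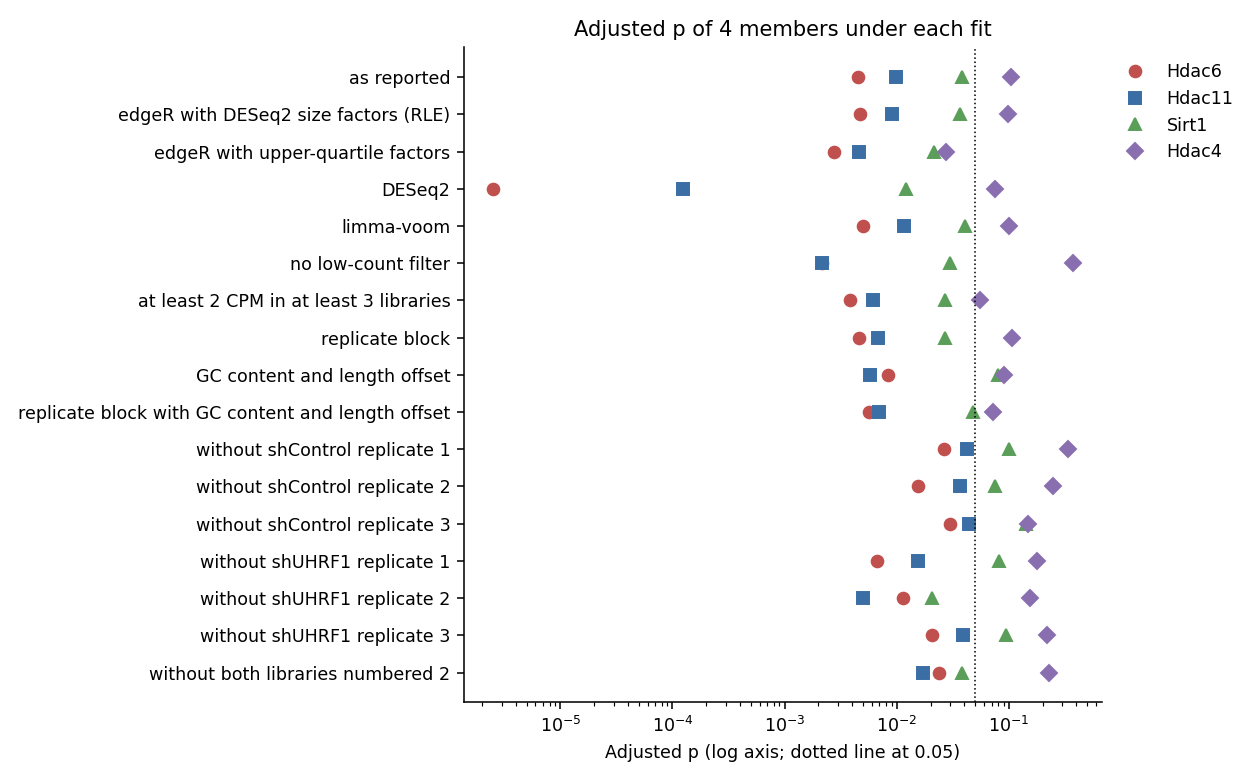
Adjusted p (log axis) of Hdac4, Hdac6, Hdac11 and Sirt1 under each fit, with the dotted line at 0.05; without a low-count filter the points of Hdac6 and Hdac11 coincide. The points of Hdac6 and Hdac11 stay below the line in every fit, up to 0.03 and 0.0439, those of Sirt1 lie on both sides of it, and Hdac4 is below it with upper-quartile scaling alone.

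Levels between genes were compared per kilobase of exon (RPKM, the CPM divided by exon kilobases). In shControl the order from the top was Hdac3 (26.8 ± 3.15 RPKM), Hdac11 (18 ± 0.684), Sirt2 (11.4 ± 3.21), Hdac6 (11.3 ± 0.58), Hdac4 (10.5 ± 0.715), Sirt1 (2.68 ± 0.27), Hdac5 (2.4 ± 0.349), Hdac7 (1.76 ± 0.0907), Hdac8 (1.21 ± 0.171) and Hdac9 (0.0779 ± 0.0276). The library ranges overlapped between the neighbours Sirt2 and Hdac6, Hdac6 and Hdac4, and Sirt1 and Hdac5, so their order is not settled. Hdac3 stood at the 87.8 percentile of all tested genes, Hdac11 at 81.6 and Hdac9 at 2.12. In shUHRF1, Hdac11 (29.1 ± 4.68 RPKM) and Hdac3 (28.5 ± 3.72) were first and overlapped, followed by Hdac6 (17.8 ± 0.974), with Hdac4 (12.6 ± 0.424) and Sirt2 (10.9 ± 2.14) next and overlapping. Sirt1 followed at 4.19 ± 0.887 RPKM, then Hdac5 (2.45 ± 0.183) and Hdac7 (2.21 ± 0.42), which overlapped, Hdac8 (1.14 ± 0.0351) and Hdac9 (0.103 ± 0.0167).

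The level order depended in part on which exon length was used. Hdac4 has 15813 union exon bases but a longest transcript of 8100, and Sirt2 5035 against 2117. With the longest transcript the shControl levels were 30.3 RPKM for Hdac3, 27 for Sirt2, 26.1 for Hdac11, 20.6 for Hdac4 and 13 for Hdac6, while Hdac9 stayed last at 0.144. Within class IIa, Hdac4 gave 69.5% to 72.9% of the summed RPKM in shControl libraries and 71% to 74% in shUHRF1 libraries, Hdac5 14.2% to 18.3% and 13.1% to 15.3%, and Hdac9 0.328% to 0.724% and 0.487% to 0.674%. The summed RPKM of the 10 members was 80.2 to 91 in shControl and 99.8 to 121.2 in shUHRF1. Hdac11 was 20.1% to 21.5% and then 24.5% to 27.9% of that sum, while Hdac3 was 28% to 33.4% and then 25.2% to 27% of it at similar levels of its own.

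**Figure D4:**
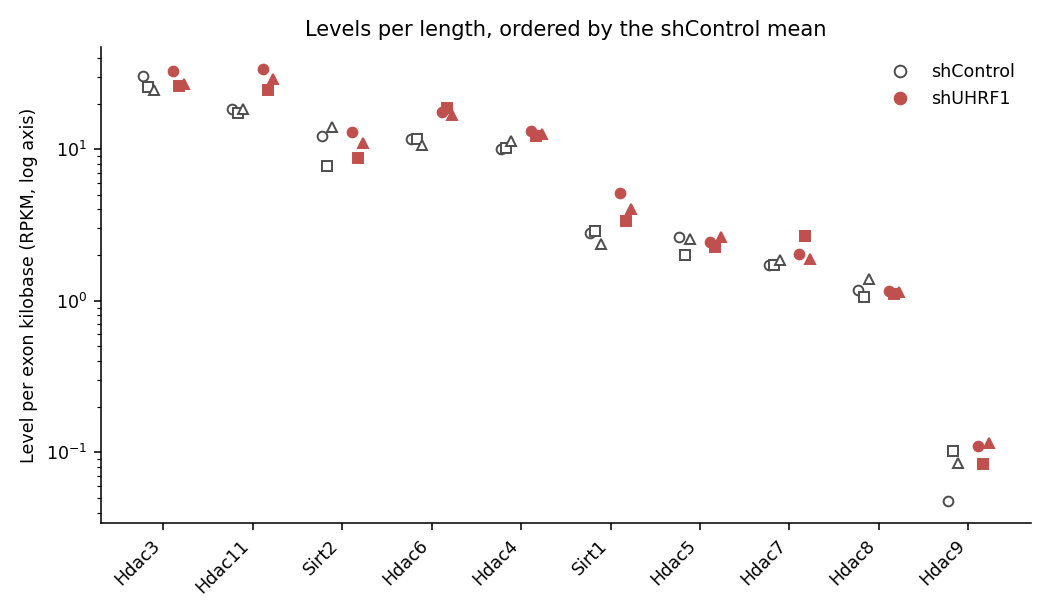
Level per exon kilobase (RPKM, log axis) of each member in each library, ordered by the shControl mean, open points for shControl, red points for shUHRF1 and shapes for the replicate number. Hdac3 leads in shControl at 26.8 RPKM, Hdac9 is last at 0.0779 RPKM, and the shUHRF1 points of Hdac11, Hdac6 and Sirt1 lie above their shControl points.

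The genes whose pattern over the 6 libraries was most like that of Hdac11, the called member with the largest fold change, were Psd2, Ifngr1 and Mob1b. Likeness was the mean absolute difference of log2(CPM + 0.5), each gene centred on its own mean, over 6 libraries and 10217 protein-coding genes, and it was 0.0243, 0.029 and 0.0347. The choice used the group difference itself, so it favours a like fold change, a small adjusted p and a like order of libraries. Psd2, a guanine nucleotide exchange factor for ARF6, stood at 23.8, 23.3 and 24.1 CPM in the shControl cultures and at 45, 33.7 and 38.8 CPM in shUHRF1, the same order of libraries as Hdac11 within shUHRF1. Ifngr1, a chain of the interferon gamma receptor, and Mob1b, a regulator of the LATS kinases, had log2 fold changes of 0.72 (edgeR adjusted p = 0.0135 and 0.0105). Ifngr1 was not called without the shControl library 1 (0.67, 0.0596) and Mob1b not with the GC and length offset (0.50, 0.117).

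Beyond the members, 64 genes for related enzymes, partners, upstream kinases, cosubstrate supply and the opposing acetyltransferases were listed, and 58 were tested: 7 were higher, 9 lower and 42 not called. Across all 15573 tested genes 24% were called, 11.6% as higher and 12.4% as lower. The counts of each list are to be read beside these shares. Up to 3 genes per list were named for the smallest unadjusted p, a choice that favours groups without overlap. Among the other deacetylases and sirtuins, 6 of 6 were tested with a median log2 fold change of 0.14. Hdac10, a class IIb polyamine deacetylase, was higher, with 32.5, 31 and 27.6 CPM in the shControl cultures and 55.4, 48.1 and 38.3 CPM in shUHRF1 (0.64 ± 0.16 on the log2 scale, edgeR adjusted p = 0.0229). It thus moved in the direction of Hdac6, the other class IIb gene, but was not called without the shControl library 1, 2 or 3 (0.0628, 0.0596 and 0.0957) or without both libraries numbered 2 (0.0885). Sirt3, the main mitochondrial sirtuin, was lower, at 32.7, 25.5 and 29.8 CPM against 18.3, 18.1 and 21.9 CPM, and fell by 0.59 on the log2 scale (SE 0.15, adjusted p = 0.0242). That call was lost without the shControl library 1 or 3 (0.0846 and 0.0833) or the shUHRF1 library 1 (0.0518), and exons of Ric8a and Psmd13 on the opposite strand overlap 7% and 5.73% of its exon bases. Sirt4, another mitochondrial sirtuin, was at 6.56 ± 0.58 and 9.08 ± 0.395 CPM (0.47, adjusted p = 0.0776).

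Of 4 listed genes of the NCoR complex, a corepressor that HDAC3 needs for its activity, 4 were tested and 0 were called by edgeR's adjusted p, with 1 at an unadjusted p under 0.05 and 0 by DESeq2 or limma-voom, and with a median log2 fold change of −0.07. Ncor1 was at 272.2 ± 19.5 CPM in the shControl cultures and 223.8 ± 24 CPM in shUHRF1 (−0.28, adjusted p = 0.129), and was called only in the fit with both the replicate block and the GC offset (−0.34, 0.0286). Gps2 was at 9.49 ± 0.659 and 12.2 ± 1.86 CPM (0.37, adjusted p = 0.16). Tbl1xr1, a WD-repeat subunit of the complex, was at 94.6 ± 11.7 and 88.8 ± 5.56 CPM (−0.09, adjusted p = 0.639).

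Of 10 listed MEF2 and 14-3-3 genes, whose proteins bind class IIa enzymes, 9 were tested, 1 higher and 1 lower, with a median log2 fold change of −0.15. Mef2c, a MEF2 factor of neurons, muscle and macrophages, was at 3.19, 3.95 and 3.2 CPM in the shControl cultures and at 40.5, 17.3 and 19.5 CPM in shUHRF1, with no overlap and the first shUHRF1 library far above the other two. Its log2 fold change was 2.91 ± 0.35 (edgeR adjusted p = 0.00173), and it was called in 16 of 16 other fits. Mef2a was at 121.2 ± 13.9 and 170.4 ± 28.4 CPM (0.49, adjusted p = 0.0503), just outside the threshold, and was called in 9 of 16 other fits, among them the replicate block (0.48, 0.0146). Ywhag, the 14-3-3 gamma protein that holds phosphorylated class IIa enzymes in the cytoplasm, was at 1296, 797.6 and 1937 CPM against 486.5, 596.9 and 697.5 CPM and fell by 1.18 on the log2 scale (SE 0.30, adjusted p = 0.0259). That call was lost without the shControl library 1 or 3 (0.0633 and 0.0739) or the shUHRF1 library 1 or 3 (0.0627 and 0.0556).

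The kinases that phosphorylate class IIa enzymes were 14 of 14 tested, 1 higher and 4 lower, with a median log2 fold change of −0.10. Across all tested genes 11.6% were higher and 12.4% lower. Camk2d, a calcium/calmodulin-dependent kinase, was at 279, 304.3 and 288.7 CPM against 146.5, 177.5 and 171.2 CPM and fell by 0.82 on the log2 scale (SE 0.11, edgeR adjusted p = 0.00291). Camk1d was at 28.7, 27.3 and 27.9 CPM against 9.56, 15.4 and 15.1 CPM and fell by 1.07 (SE 0.19, adjusted p = 0.00737). In Camk2d and Camk1d the shUHRF1 libraries lay well under the shControl libraries, which their choice by smallest unadjusted p favours. The other 2 lower kinases, named after their values were seen, were Camk4, from 919.8 ± 90.5 to 358.1 ± 119.5 CPM (−1.36, adjusted p = 0.0075), and Camk2b, from 246.9 ± 19.2 to 162.8 ± 21.3 CPM (−0.60, adjusted p = 0.0138). Camk2b was not called without the shControl library 3 or the shUHRF1 library 3 (0.0599 and 0.0591). Prkd3, a protein kinase D, went the other way, with 2.44, 2.4 and 1.72 CPM in the shControl cultures and 19.1, 7.54 and 8.57 CPM in shUHRF1 (2.43 ± 0.39, adjusted p = 0.00502). Camk2d, Camk1d and Prkd3 were called in 16 of 16 other fits. For Prkd3 and Mef2c, as for the fibroblast markers, the shControl levels were a few CPM; the part of other cells in their difference was not tested.

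Of 5 genes around tubulin acetylation and HDAC6, all tested, 0 were higher by edgeR (1 at an unadjusted p under 0.05 and 1, Atat1, by DESeq2) and 1 was lower, with a median log2 fold change of 0.07. Hsp90aa1, the inducible HSP90 chaperone and an HDAC6 substrate, was at 294.5, 304.9 and 301.2 CPM against 92, 143.1 and 121.7 CPM and fell by 1.34 on the log2 scale (SE 0.16, edgeR adjusted p = 0.00177), opposite to Hdac6. Atat1, the tubulin acetyltransferase that opposes HDAC6, was at 15.6, 9.52 and 13.6 CPM against 36.8, 16.6 and 17.6 CPM. Its groups did not overlap, but 1 shUHRF1 library was far above the rest, and the log2 fold change of 0.88 ± 0.33 had an adjusted p of 0.0931; with the replicate block it was 0.81 and called (0.0182). Without the shUHRF1 library 1 it was 0.40 (0.238), and it was called in 0 of the 6 fits that left out a library and in 4 of 16 other fits in all. The antisense model Gm16279 overlaps 14% of its exon bases and had 13 to 17 reads per library. Plaa, a ubiquitin-binding partner of VCP, was at 156.5 ± 7.34 and 184.7 ± 16.9 CPM (0.24, adjusted p = 0.157).

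For the NAD that sirtuins consume, 10 of 15 listed genes were tested, 3 were higher and 0 lower by edgeR, with 1 lower at an unadjusted p under 0.05 and 1, Nmrk1, by DESeq2. The median log2 fold change was 0.01, and of all tested genes 11.6% were higher and 12.4% lower. Parp1, the DNA-damage polymerase that is a major NAD consumer, was at 162.7, 164.3 and 177.8 CPM against 297.9, 239 and 260.7 CPM, with no overlap (0.66 ± 0.12, edgeR adjusted p = 0.00714), and was called in 16 of 16 other fits. Nmnat2, the axonal NAD-synthesising enzyme whose loss triggers axon degeneration, was at 216.6, 223.5 and 222.6 CPM against 301.2, 260.5 and 287.2 CPM (0.36 ± 0.10, adjusted p = 0.041). Naprt, which makes NAD precursor from nicotinic acid, was at 0.871, 1.17 and 1.24 CPM against 2.69, 1.94 and 2.18 CPM (1.05 ± 0.30, adjusted p = 0.0365), and 11.8% of its exon bases are shared with Eef1d on the same strand. Nmnat2 and Naprt were each called in 1 of the 6 fits that left out a library, the one without the shUHRF1 library 2, with adjusted p up to 0.159 and 0.138 in the others, and in 7 of 16 and 8 of 15 other fits in all. Nmrk1, a nicotinamide riboside kinase named after its values were seen, was at 13.3 ± 3.96 and 7.14 ± 2.32 CPM (adjusted p = 0.0639) and was called lower with the replicate block (−0.90, 0.0174). The recycling enzyme Nampt, also named outside the rule of smallest p, was at 103.5 ± 10.9 and 105.1 ± 20.2 CPM (0.02, adjusted p = 0.937).

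**Figure D5:**
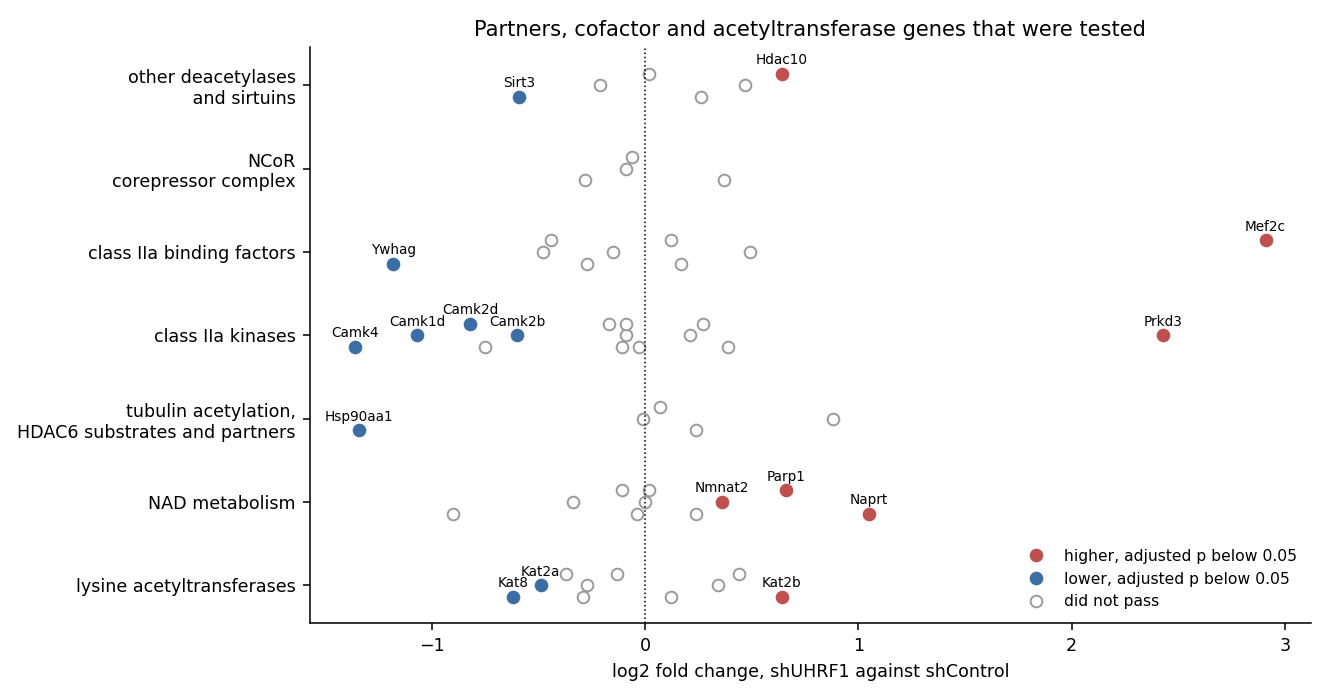
Log2 fold change of each tested gene of the 7 related lists, 1 row per list, red for higher, blue for lower and open for genes that were not called. Mef2c and Prkd3 lie far to the right at 2.91 and 2.43, and Camk4, Hsp90aa1 and Ywhag farthest to the left at −1.36, −1.34 and −1.18.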

How the data were processed

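RNA from 3 shControl and 3 shUHRF1 cultures was sequenced after rRNA depletion and SMARTer cDNA synthesis, per the labels' protocols. The deposited values are raw read counts per Ensembl gene, and the submitters' processing notes name FastQC, STAR, HTSeq, DESeq2 and the mm10 build; the sources used here do not state versions, annotation release or strand setting. Without a known strand setting, reads of a gene and an antisense partner cannot be told apart. Counting lines that name no gene stayed out of the library sizes: 30.5% to 37.3% of alignments were not unique and 2.12% to 2.27% ambiguous. Of 47643 identifiers, 47224 matched GENCODE M21, which gave symbols, positions and exon lengths; the 419 others held at most 0.037% of gene reads.

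Counts of 15573 genes passed edgeR's filterByExpr and were tested with edgeR 4.0.16 (TMM scaling, quasi-likelihood F test, two-sided, Benjamini-Hochberg over all tested genes, adjusted p below 0.05) in R 4.3.3. CPM values are TMM-scaled; RPKM divides them by union exon length. The test was checked on simulated counts with known fold changes. Members and lists were chosen with earlier results of these data known, and 1 further gene of the lists is not reported here. Named genes were all members, Uhrf1, up to 3 genes per list with the smallest unadjusted p, up to 3 markers per cell type by CPM, and the 3 genes most like the called member with the largest fold change. Printed beyond this rule were Camk4, Camk2b, Nmrk1, Nampt, Ep300, Kat6a and Kat7, and the markers Pecam1 and Hba-a2. Same-numbered libraries of the 2 groups deviated together from their group means (r = 0.33, 0.38 and 0.43 across genes, against −0.27 to −0.02 for other pairs), so the replicate number was also used as a block; this pairing comes from the data, not the labels. Library pairs within a group differed by more than counting noise, so none was a repeat deposit. Alternatives were DESeq2 1.42.0, limma-voom (limma 3.58.1), other scalings, filters and thresholds, a GC and length offset, and leaving out libraries. Promoter windows came from RefSeq; the 4 motifs were counted on both strands. With 3 cultures a group, intervals cover only the spread between these cultures.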

Additional observations from a re-analysis of the deposited data

How the results depend on the processing

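The number of deacetylase genes called was 3 as reported and 2 to 4 under the alternatives, with Hdac6 and Hdac11 called under each of the 16 alternative fits and at the stricter threshold of 0.01. With the replicate block it was 3 again, the Uhrf1 log2 fold change was −1.39, 4820 genes were called over all genes and 21 in the related lists; the block ended no call among the members and added Mef2a, Atat1, Nmrk1, Kat6a and Kat7 in the lists. Leaving out 1 library at a time, 1768 to 3888 genes were called against 3735 as reported, and 7 to 19 in the related lists against 16. The calls over all genes fell most without the shControl library 3 (1768), the shControl library 1 (2018) or the shUHRF1 library 3 (2171), where the related lists kept 7, 8 and 9. At an adjusted p below 0.01 there were 1434 genes over all and 7 in the lists. Upper-quartile scaling gave 2512 higher and 1378 lower genes against 1807 and 1928. No fold change reversed its direction past the threshold. Hdac9, at 12 to 36 reads, was not tested under the strict filter of 2 CPM, and Uhrf1, at 1 to 8 reads, was limited by depth.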

Other observations

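The enzymes that oppose the deacetylases, the lysine acetyltransferases, were 10 of 10 tested, 1 higher and 2 lower, with a median log2 fold change of −0.20. Across all tested genes 11.6% were higher and 12.4% lower. Kat2b (PCAF), a transcriptional coactivator, was at 12.8, 9.13 and 12.3 CPM in the shControl cultures and 20.2, 16 and 17.1 CPM in shUHRF1 (0.64 ± 0.18, edgeR adjusted p = 0.038). Its close relative Kat2a (GCN5) was at 62.5, 50.6 and 66.5 CPM against 47.8, 38 and 42.1 CPM and fell by 0.49 on the log2 scale (SE 0.14, adjusted p = 0.0425). Kat8 (MOF), which acetylates histone H4, was at 18, 18.3 and 16.6 CPM against 10.1, 13.8 and 10.6 CPM and fell by 0.62 (SE 0.17, adjusted p = 0.0311). In each of the 3 genes the groups did not overlap, which their choice by smallest unadjusted p favours. The pair Kat2a and Kat2b thus stood on opposite sides of 0. Ep300, the coactivator p300, was named outside the rule of smallest p and was at 35.5 ± 1.12 and 45 ± 5.92 CPM (0.34, adjusted p = 0.0915).

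These calls were near the threshold. Of the 6 fits that left out a library, Kat2b and Kat8 were called in 1 each, the one without the shUHRF1 library 2 for both, and Kat2a in 2, with adjusted p up to 0.102, 0.104 and 0.149. Kat2b was also lost with the GC and length offset (0.0752) and without both libraries numbered 2 (0.0829), and Kat8 and Kat2a with upper-quartile scaling (0.0688 and 0.0861), under which the list had 3 higher and 0 lower genes. With the replicate block the list had 2 higher genes (Kat2b and Kat6a) and 3 lower (Kat2a, Kat7 and Kat8). Kat6a and Kat7 were named after their values were seen, at 31.6 ± 4.12 and 42.7 ± 4.89 CPM for Kat6a and 113.7 ± 15.8 and 88 ± 7.42 CPM for Kat7 (edgeR adjusted p = 0.0592 and 0.0784, and 0.0214 and 0.0349 with the block).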
